A study of Mus musculus with 8 samples.

Results

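The genes described here encode the MYC network, a family of transcription factors that share the partner MAX. They were chosen by symbol alone and are Myc, Mycn, Mycl, Max, Mxd1, Mxi1, Mxd3, Mxd4, Mnt and Mga. The 10 genes were measured by 27 probe sets, of 34945 probe sets with 1 gene symbol on the array, which cover 18193 genes. Mouse embryonic stem cells were profiled on Affymetrix GeneChips with biotin-labelled cRNA from total RNA, 1 array per sample. In the released group (3 arrays, titled Resc) cells received 64 μM of the small-molecule MYC inhibitor 10058-F4 for 60 h and were then kept for 48 h without it. In the MYCi group (2 arrays) cells received 64 μM of the inhibitor for 60 h. In the DMSO group (3 arrays) cells received the solvent alone, at the same volume, for 60 h. Every group was cultured free of feeders and serum, in N2B27 medium containing PD0325901 (1 μM, a MEK inhibitor), CHIR99021 (3 μM, a GSK3 inhibitor) and leukaemia inhibitory factor.

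MYC, MYCN and MYCL activate transcription only as dimers with MAX, which bind E-box sequences such as CACGTG in gene promoters. MXD proteins (MXD1, MXI1, MXD3 and MXD4) and MNT bind MAX through the same kind of dimer and recruit SIN3 and histone deacetylases, which repress the same class of sites. MGA is a much larger MAX partner that belongs to a variant Polycomb complex in stem cells. The compound was developed to keep MYC from pairing with MAX, so it acts on the proteins and the transcript levels below do not check whether it worked. In mouse embryonic stem cells MYC proteins are known for sustaining growth and proliferation.

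The 8 arrays had near-equal distributions, with medians between 4.54 and 4.59 on the log2 scale. Within a group, pairs of arrays correlated at 0.9971 to 0.9978 across probe sets, which are not independent replicates. No 2 arrays held identical values. The mean log2 level over 7 pluripotency markers was 11.51 to 11.56 in released, 11.52 to 11.53 in MYCi and 11.48 to 11.51 in DMSO arrays. In MYCi against DMSO Zfp42 (0.69) and Esrrb (0.20) rose, Tdgf1 (-0.38) and Dppa5a (-0.26) fell, while the other 3, Nanog, Sox2 and Pou5f1, gave no call. The mean log2 level over 7 fibroblast and feeder markers was 3.52 to 3.53 in released, 3.33 to 3.38 in MYCi and 3.45 to 3.48 in DMSO arrays, and that over 7 endoderm markers lay between 3.57 and 3.78 on all arrays. For 7 trophectoderm markers it was 5.35 to 5.41 in released, 6.46 to 6.62 in MYCi and 5.14 to 5.24 in DMSO arrays. Of those 7 markers 3 rose in MYCi against DMSO, namely Krt8, Krt18 and Gata3, while Cdx2 and Elf5 did not pass. For 6 measured neural markers the mean was 4.78 to 4.94 in released, 4.56 in both MYCi and 5.08 to 5.24 in DMSO arrays. Of these Map2 (-2.13), Tubb3 (-1.39) and Sox1 (-0.31) fell in MYCi against DMSO, while Pax6, Nes and Neurog2 did not pass. As a sign of RNA quality, the 3′ minus 5′ difference of the Gapdh controls was -0.13 to -0.12 in released arrays, -0.15 and -0.22 in MYCi arrays and -0.13 to -0.11 in DMSO arrays (log2). For the beta-actin controls it was 0.25 to 0.28 in released, 0.25 and 0.29 in MYCi and 0.25 to 0.27 in DMSO arrays. The part of these differences in the results below was not tested. Bacterial control probe sets lay between 2.15 and 2.95, and changes of genes near that level are compressed. Nothing in the labels tells if the arrays of a group stem from different cultures, and the p-values therefore reflect array-to-array spread that could be technical.

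After 60 h with the inhibitor the network changed in 4 of its 10 genes. Mycl, which encodes the third MYC family protein, fell to about 0.488 of its DMSO level, and Mxd3, which encodes an MXD repressor, fell to 0.483. Mxi1 fell slightly and Mga rose slightly, while Myc, Mycn, Max, Mxd1, Mxd4 and Mnt did not pass the test in that comparison. In released cells Mycl, Mxd3 and Mxi1 were again higher than in MYCi cells, and Myc rose above both other groups. A gene counts here as called when its probe set with the highest mean over all arrays, the leading probe set, had a limma adjusted p under 0.05 in a fit over all 34945 probe sets. The 4 called genes of 10 in MYCi against DMSO stand beside 39.6% of all genes called in that comparison, so the share of network genes called was close to that of genes at large. Their median log2 change was -0.09, against -0.06 over all genes.

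**Figure D1:**
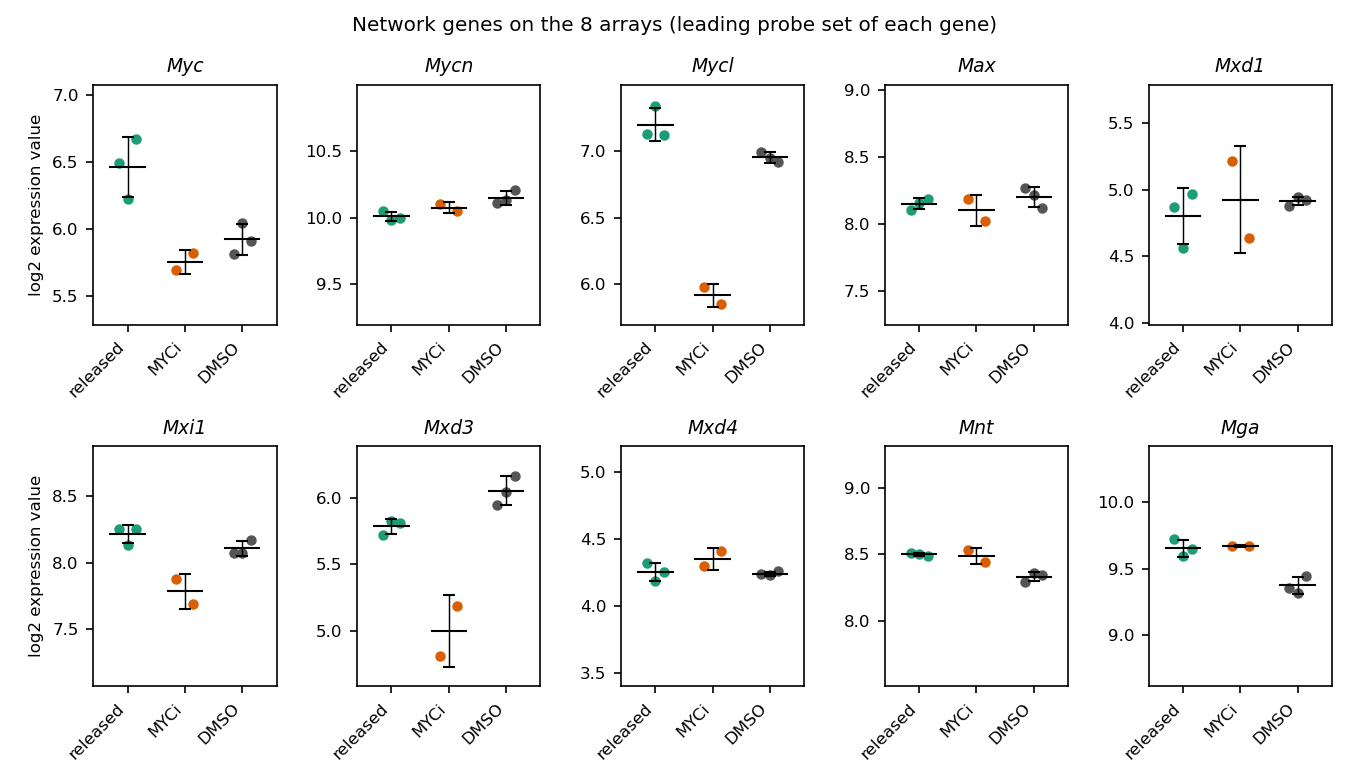
Log2 expression values (vertical axis, 1 panel per gene, each spanning the same range of log2 units) of the leading probe set in released, MYCi and DMSO arrays. Points are arrays, bars are group means and whiskers are SD (n = 3, 2 and 3). Mycl and Mxd3 are lowest in the MYCi arrays, and Myc is highest in the released arrays.

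Of the called genes, Mycl and Mxd3 fell most in MYCi against DMSO. In released against DMSO their leading probe sets differed in sign (0.24 and -0.27), and neither passed. The bases before the transcription starts of Mycl and Mxd3 are shown in full, as listed by RefSeq on build GRCm38.p6. Capitals mark motifs found on either strand. The motifs searched were the E-box CACGTG and its close variants CATGTG and also CACGCG. The sites TTTCGCGC and TTTGGCGC of E2F factors, which drive genes of the cell cycle, were searched as well. The Mycl window is chr4:122995681-122995930 (plus strand) and the Mxd3 window is chr13:55329732-55329981 (minus strand), each 250 bases, written 5′ to 3′ in the direction of the gene.
Mycl: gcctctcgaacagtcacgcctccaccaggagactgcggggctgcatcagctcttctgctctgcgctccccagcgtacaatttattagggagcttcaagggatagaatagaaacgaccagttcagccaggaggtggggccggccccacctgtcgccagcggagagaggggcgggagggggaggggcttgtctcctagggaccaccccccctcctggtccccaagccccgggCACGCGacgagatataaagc
Mxd3: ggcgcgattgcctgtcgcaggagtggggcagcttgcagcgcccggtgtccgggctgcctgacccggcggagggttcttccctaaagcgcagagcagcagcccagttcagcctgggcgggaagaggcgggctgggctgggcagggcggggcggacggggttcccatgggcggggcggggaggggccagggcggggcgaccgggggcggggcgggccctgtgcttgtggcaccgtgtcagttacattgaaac
The full windows, from 250 bases before to 50 bases after the start, held none of the 5 motifs for Mxd3 and only CACGCG for Mycl, at 20 to 15 bases before the start. CACGCG was found in 9.27% of all 32851 windows, CATGTG in 14.15%. Mxi1, which also fell, has 3 windows, of which 1 holds CATGTG on its reverse strand, read as CACATG, at positions -123 to -118 from the start, in the stretch chr19:53329542-53329607 (plus strand).
Mxi1: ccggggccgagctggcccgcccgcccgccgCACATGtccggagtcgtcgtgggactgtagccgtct
Mga, the called gene that rose, holds CACGCG on its reverse strand, read as CGCGTG, at 21 to 16 bases before the start, in the stretch chr2:119897177-119897237 (plus strand).
Mga: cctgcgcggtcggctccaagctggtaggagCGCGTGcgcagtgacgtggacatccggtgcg

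RefSeq windows were at hand for 9 of the 10 genes, in 11 windows, and not for Myc. CACGTG, the E-box bound best by MYC and MAX dimers, was present for Max, Mnt and Mxd4, against 8.09% of all 27025 genes with a window. Mxd4 was dim on all its probe sets, and its dimmest probe set did pass, as given below. None of the leading probe sets of Max, Mnt and Mxd4 passed the test in any comparison, as was also so for Mycn and Mxd1. The stretches that hold CACGTG in Max, Mnt and Mxd4 are shown. They are chr12:76962239-76962281 (minus strand) for Max, chr11:74830771-74830836 (plus strand) for Mnt and chr5:34187894-34187959 (minus strand) for Mxd4.
Max: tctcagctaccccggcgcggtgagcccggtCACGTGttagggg
Mnt: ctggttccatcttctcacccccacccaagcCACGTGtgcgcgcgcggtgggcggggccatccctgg
Mxd4: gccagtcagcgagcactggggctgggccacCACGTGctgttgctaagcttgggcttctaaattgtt
In Max the motif lies across the start, from 3 bases before it to the second base after it. Mycn, whose level stayed within a narrow range, holds E2F letters in the stretch chr12:12941967-12942049 (minus strand), where TTTGGCGC overlaps the reverse strand of TTTCGCGC and TTTGGCGC follows once more.
Mycn: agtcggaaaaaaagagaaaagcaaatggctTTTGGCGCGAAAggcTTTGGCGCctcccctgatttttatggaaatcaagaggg
TTTGGCGC was found in 0.58% and TTTCGCGC in 0.37% of all genes with a window. A match describes the letters of a window and does not show binding.

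Among the genes of the MYC family, Mycl had the clearest change. Its leading probe set read 5.98 and 5.86 on the log2 scale in MYCi arrays, against 6.99, 6.95 and 6.91 in DMSO arrays. The 2 groups did not overlap, and the change was -1.04 ± 0.085 (log2 ± moderated standard error; limma adjusted p = 8.32e-06). The other probe sets of Mycl fell as well, by 0.98 and 0.50 on the log2 scale, so all 3 passed the test in the same direction. In released arrays the leading probe set read 7.13, 7.34 and 7.12, all above the 5.98 and 5.86 of the MYCi arrays. That is a rise of 1.28 ± 0.085 against MYCi (limma adjusted p = 1.92e-06), or 2.43-fold. All 3 released arrays also lay above all 3 DMSO arrays, but the difference of 0.24 ± 0.076 did not pass (limma adjusted p = 0.0944; 95% interval 0.07 to 0.42 before adjustment). The other probe sets of Mycl gave 0.16 and 0.03 in that comparison, with overlapping groups.

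Myc, the gene of the founding member of the family, has 1 probe set here. Its values were 5.69 and 5.82 in MYCi arrays, against 5.81, 6.04 and 5.91 in DMSO arrays. These groups overlapped, and the change of -0.17 ± 0.12 did not pass (limma adjusted p = 0.334), with a 95% interval of -0.44 to 0.11. In released arrays Myc read 6.49, 6.23 and 6.67, above every array of both other groups. It rose by 0.71 ± 0.12 against MYCi, or 1.64-fold (limma adjusted p = 0.00121). Against DMSO it rose by 0.54 ± 0.11, or 1.46-fold (limma adjusted p = 0.0183). The call against DMSO ended when any of 4 arrays was left out. The change was then 0.49 without DMSO replicate 1, 0.54 without DMSO replicate 3, 0.53 without released replicate 1 and 0.44 without released replicate 3 (limma adjusted p = 0.0679, 0.0527, 0.0632 and 0.0541). The released arrays carry a further 48 h of culture that neither the DMSO nor the MYCi arrays do. Inhibitor withdrawal and culture time therefore cannot be told apart in released against DMSO or in released against MYCi.

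Mycn, the family member whose leading probe set lay at the 95.9th percentile of all probe sets by mean value, gave no call. It read 10.05, 9.99 and 10.0 in released arrays, 10.1 and 10.05 in MYCi arrays and 10.11, 10.13 and 10.21 in DMSO arrays. The change in MYCi against DMSO was -0.07 ± 0.068 (limma adjusted p = 0.44; 95% interval -0.23 to 0.08). Released arrays lay below all DMSO arrays by a small step (-0.14 ± 0.061; limma adjusted p = 0.229), which did not pass. The other probe sets of Mycn did not pass in any comparison and differed in sign, since released against DMSO was -0.15 for 1 and 0.16 for the other. In bulk samples, fewer cells that express a gene and less of its RNA per cell cannot be told apart.

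Max, the obligate partner, has 1 probe set. It read 8.1, 8.16 and 8.19 in released arrays, 8.18 and 8.02 in MYCi arrays and 8.27, 8.22 and 8.12 in DMSO arrays, and the 3 groups overlapped. No comparison passed: the change was -0.10 ± 0.078 in MYCi against DMSO (limma adjusted p = 0.358; 95% interval -0.28 to 0.08) and -0.05 ± 0.070 in released against DMSO (limma adjusted p = 0.731).

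The 4 MXD genes, which encode the small MAX-binding repressors, divided into 2 that fell and 2 whose leading probe sets did not pass. Mxd3, the member known to be made in S phase of cycling cells, changed most. Its leading probe set read 4.81 and 5.19 in MYCi arrays, against 5.95, 6.04 and 6.16 in DMSO arrays, without overlap. The change was -1.05 ± 0.11 (limma adjusted p = 4.4e-05), and its other probe sets fell by 0.60 and 0.78 on the log2 scale, so all 3 passed. Released arrays read 5.72, 5.82 and 5.81, a rise of 0.78 ± 0.11 against MYCi (limma adjusted p = 0.000316) that all 3 probe sets shared. They still lay below all DMSO arrays on the leading probe set, but the difference of -0.27 ± 0.10 did not pass (limma adjusted p = 0.16), and the other probe sets gave -0.04 and -0.08 with overlapping groups.

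Mxi1, also known as the gene of MXD2, fell less than Mxd3. Its leading probe set read 7.88 and 7.69 in MYCi arrays, against 8.07, 8.07 and 8.17 in DMSO arrays. The change was -0.32 ± 0.081 (limma adjusted p = 0.0103), and the call ended without MYCi replicate 2, where it was -0.23 (limma adjusted p = 0.109). The second probe set had tighter values, 6.41 and 6.39 in MYCi arrays against 6.81, 6.87 and 6.8 in DMSO arrays, and fell by 0.43 on the log2 scale (limma adjusted p = 0.000475). In released arrays the leading probe set read 8.25, 8.13 and 8.25, a rise of 0.43 ± 0.081 against MYCi (limma adjusted p = 0.00197), and neither probe set passed against DMSO (0.11 and -0.08).

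Mxd1, the gene of the MXD protein best known from differentiating cells, gave no call on any of its 3 probe sets. The 2 MYCi arrays disagreed on its leading probe set, at 5.21 and 4.64, and lay on both sides of the DMSO values of 4.88, 4.94 and 4.92. The change of 0.01 ± 0.16 therefore has a wide 95% interval, from -0.34 to 0.37. Mxd4, a further MXD repressor gene, was dim on all 4 of its probe sets, with values between 3.26 and 4.41. Its leading probe set differed by 0.11 ± 0.073 in MYCi against DMSO (limma adjusted p = 0.263). Only the dimmest of the 4 passed, at 3.89 and 3.79 in MYCi arrays against 3.34, 3.35 and 3.29 in DMSO arrays (0.52 ± 0.081; limma adjusted p = 0.000584), and it fell again by 0.46 on the log2 scale in released against MYCi. The other probe sets of Mxd4 gave -0.06 and 0.00 in MYCi against DMSO.

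Of the 2 other MAX-binding repressor genes, Mga rose and Mnt did not pass. Mga, whose protein joins MAX to a variant Polycomb complex, read 9.67 and 9.67 in MYCi arrays on its leading probe set, against 9.36, 9.32 and 9.45 in DMSO arrays. It rose by 0.30 ± 0.073, or 1.23-fold (limma adjusted p = 0.00902), but without MYCi replicate 1 the change of 0.29 no longer passed (limma adjusted p = 0.0507). A second probe set of similar level rose by 0.42 ± 0.066 (limma adjusted p = 0.000592). The 3 dimmer probe sets of Mga did not pass (0.15, -0.16 and -0.15), and with the mean of all 5 the change was 0.11 (limma adjusted p = 0.229).

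After release the leading probe set of Mga lay close to its MYCi mean. It read 9.72, 9.59 and 9.65 in released arrays, within 0.02 of MYCi on average (-0.02 ± 0.073; 95% interval -0.18 to 0.14) and above every DMSO array. The rise against DMSO was 0.28 ± 0.065 (limma adjusted p = 0.0324). The call ended without DMSO replicate 1 or 2 (limma adjusted p = 0.0939 and 0.0983) and without released replicate 1, 2 or 3 (0.112, 0.0574 and 0.0862). It also ended with the replicate block (0.0648) and with only the arrays of the 2 groups (0.0512). With the mean of all 5 probe sets of Mga the change was 0.09 (limma adjusted p = 0.428), and the 3 dimmer probe sets gave 0.19, -0.14 and -0.04 without passing. The second probe set read 9.37, 9.33 and 9.38 in released arrays, fell by 0.24 on the log2 scale against MYCi (limma adjusted p = 0.0151) and did not pass against DMSO (0.18 ± 0.059; limma adjusted p = 0.114).

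Mnt encodes a widely expressed MAX-binding repressor. Its leading probe set read 8.51, 8.5 and 8.49 in released arrays and 8.53 and 8.44 in MYCi arrays, all above the 8.29, 8.36 and 8.35 of the DMSO arrays. The changes were 0.15 ± 0.066 in MYCi against DMSO (limma adjusted p = 0.101) and 0.17 ± 0.059 in released against DMSO (limma adjusted p = 0.14). With a variance trend and robust fitting both passed (limma adjusted p = 0.0402 and 0.0392). The second probe set of Mnt lay between 3.80 and 4.15 on all arrays and did not pass in any comparison.

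**Figure D2:**
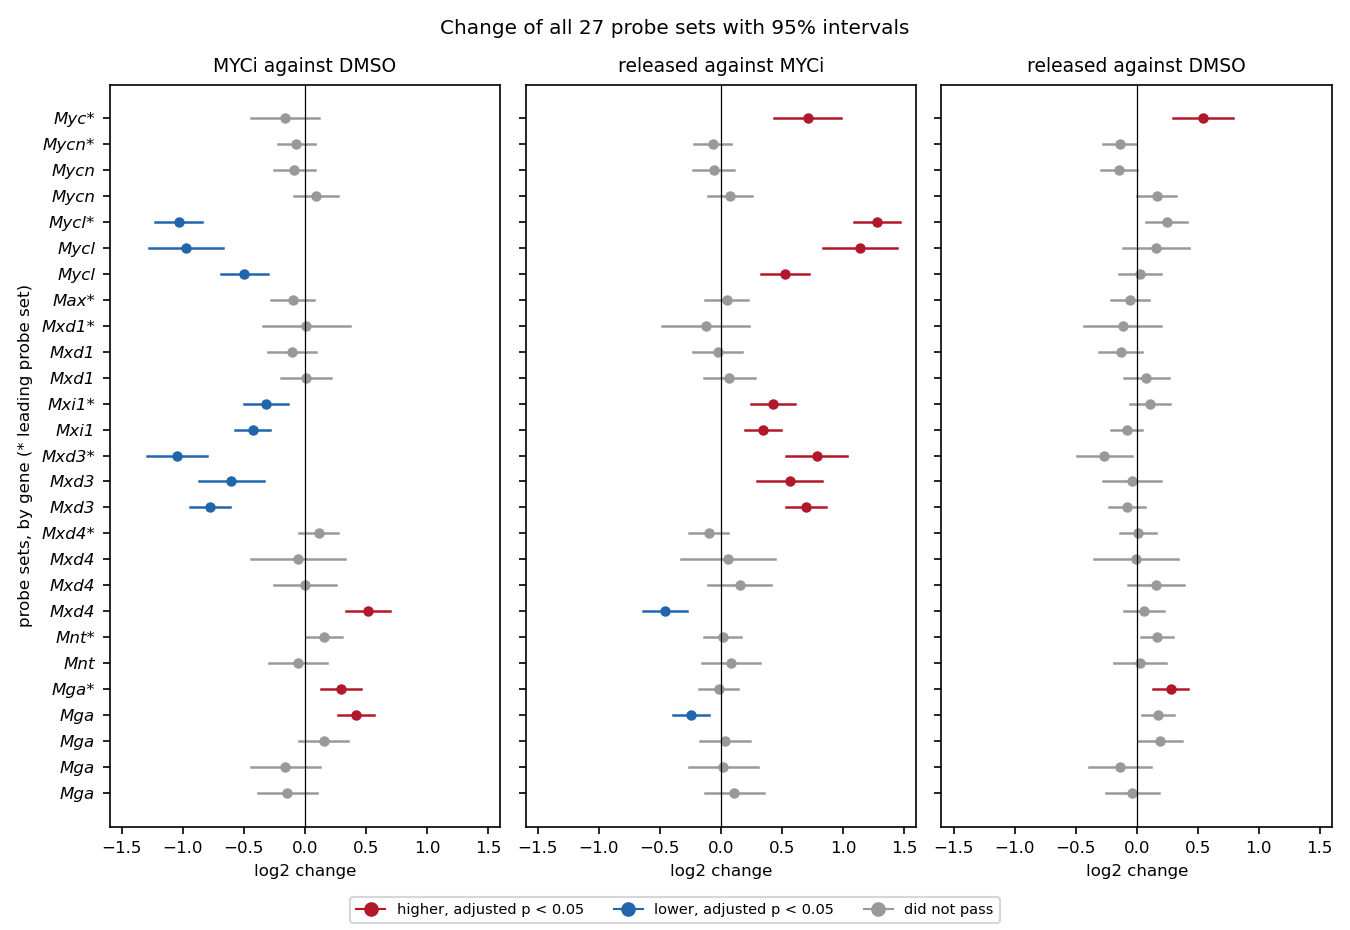
Log2 change (horizontal axis) of each of the 27 probe sets in MYCi against DMSO, released against MYCi and released against DMSO, with 95% intervals of the limma fit before adjustment. Asterisks mark the leading probe set of each gene. Red and blue mark adjusted p under 0.05. The 3 probe sets of Mycl, the 3 of Mxd3 and the 2 of Mxi1 are lower with the inhibitor and higher after release, while those of Mga, Mxd4 and Mycn differ among themselves.

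Over all 27 probe sets, 11 passed in MYCi against DMSO, beside 37.3% of all probe sets. Of these 3 rose, beside 17.5%, and 8 fell, beside 19.9%. In released against MYCi 11 passed as well, beside 36.8%, of which 9 rose, beside 19.9%, and 2 fell, beside 17.0%. By leading probe set 4 of the 10 genes passed in that comparison, beside 39.7% of all genes. All 4 rose (Myc, Mycl, Mxi1 and Mxd3), beside 21.2%, and 0 fell, beside 18.5% (limma; 0 lower also at an unadjusted p under 0.05). The comparisons share arrays, so a gene low in MYCi enters the first with 1 sign and the second with the other. In released against DMSO 2 genes passed, Myc and Mga, beside 7.08% of all genes. Both rose, beside 3.79%, and 0 fell, beside 3.29%, while at an unadjusted p under 0.05 limma gave 4 higher and 2 lower. Of the probe sets 2 passed, beside 6.63%, of which 2 rose, beside 3.61%, and 0 fell, beside 3.02% (limma; 7 higher and 2 lower at an unadjusted p under 0.05).

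Whether arrays of 2 groups overlapped was counted as well. In MYCi against DMSO the groups did not overlap in 16 of the 27 probe sets, beside 57.8% of all, and in 7 of the 10 genes, beside 60.5%. In released against MYCi they did not overlap in 12 probe sets, beside 58.4%, and in 5 genes, beside 61.9%. In released against DMSO they did not overlap in 10 probe sets, beside 26.7%, and in 6 genes, beside 28.6%. The 6 genes of the last comparison were Myc, Mycn, Mycl, Mxd3, Mnt and Mga.

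Genes that work with the network were described from lists, each gene by its leading probe set. The lists were chosen with earlier results of these data known, so their counts are a description only. In MYCi against DMSO 18.5% of all genes rose and 21.1% fell. Of 26 genes known as E-box targets activated by MYC, 0 rose and 20 fell in limma, and at an unadjusted p under 0.05 it was 0 and 23, with a median log2 change of -0.48. The cell cycle phosphatase gene Cdc25a fell most clearly (-1.31 ± 0.084; limma adjusted p = 1.62e-06). The lactate dehydrogenase gene Ldha (-0.86 ± 0.068), the transferrin receptor gene Tfrc (-0.76 ± 0.072) and the purine synthesis gene Ppat (-0.74 ± 0.074) fell too. The nucleolar genes Npm1 (-0.10 ± 0.062) and Ncl (-0.15 ± 0.064) were among the 6 that did not pass and are named after their values were seen. Of the other probe sets of Ppat, 1 gave a change of 0.02, and 2 of the 3 of Cdc25a passed.

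In released against MYCi, which shares the MYCi arrays, 21 of the 26 E-box targets rose, beside 21.2% of all genes. In that comparison 0 fell, beside 18.5% (0 also at an unadjusted p under 0.05). Against DMSO 1 of the 26 rose, beside 3.79% of all genes, and 0 fell, beside 3.29%. The gene that rose was Ldha. Its single probe set averaged 11.12 in released arrays against 9.67 in DMSO arrays, a 2.72-fold rise (1.44 ± 0.060; limma adjusted p = 4.54e-06). Cdc25a, Tfrc and Ppat differed from DMSO by -0.04, 0.13 and 0.03 and did not pass. The median of the list was 0.02 in released against DMSO.

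Of 7 genes known to be repressed by MYC, 6 rose and 0 fell in MYCi against DMSO (limma; 6 and 0 also at an unadjusted p under 0.05), with a median of 0.26. Gadd45a, a growth arrest gene, rose 4.45-fold (2.15 ± 0.092; limma adjusted p = 1.27e-07) and Ndrg1, a stress and differentiation gene, rose 3.58-fold (1.84 ± 0.078; limma adjusted p = 1.27e-07). Clu (0.54 ± 0.11), the gene of the chaperone clusterin, and Cdkn1a (0.26 ± 0.063), the gene of the CDK inhibitor p21, rose less. In released against MYCi 5 of the 7 fell, beside 18.5% of all genes, and 0 rose, beside 21.2%. Gadd45a then lay below DMSO, with a mean of 6.87 in released arrays against 7.29 in DMSO arrays (-0.42 ± 0.082; limma adjusted p = 0.0153), a call that ended without released replicate 1 (-0.38; limma adjusted p = 0.0609) or 2 (-0.41; 0.055).

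The lists of protein partners were mixed. Of 9 measured SIN3 and NCoR corepressor genes, 2 rose and 4 fell in MYCi against DMSO. The scaffold gene Sin3a (-0.56 ± 0.081) and the deacetylase gene Hdac1 (-0.47 ± 0.064) fell, while the SIN3 subunit gene Suds3 (0.51 ± 0.079) and the histone-binding gene Rbbp7 (0.41 ± 0.067) rose. The other probe set of Suds3 gave 0.06 and did not pass. Of 14 MYC coactivators and binding partners, 2 rose and 6 fell, or 1 and 4 without MYCi replicate 2. The AAA+ helicase genes Ruvbl2 (-0.78 ± 0.069) and Ruvbl1 (-0.57 ± 0.067) and their complex partner Actl6a (-0.48 ± 0.076) fell, and the acetyltransferase gene Crebbp rose (0.54 ± 0.068). The 4 probe sets of Crebbp ranged from -0.20 to 0.54, of which 2 rose, and those of Actl6a from -0.48 to -0.01, of which 2 of 3 fell.

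Among 8 partners of MGA in its Polycomb complex, 2 rose and 3 fell in MYCi against DMSO. L3mbtl2 (-0.66 ± 0.079), a chromatin reader of the complex, and Tfdp1 (-0.54 ± 0.067), the dimer partner of E2F6, fell, whereas E2f6 itself (0.55 ± 0.069) and the RING1-binding gene Yaf2 (0.57 ± 0.10) rose. The second probe set of E2f6 gave -0.11 and did not pass. By leading probe set all 4 moved back in released against MYCi, where the second of E2f6 gave 0.01. In released against DMSO none of the 8 passed, beside 7.08% of all genes (limma, 0 also at an unadjusted p under 0.05). In Mga the leading probe set stayed above DMSO in released cells, as given above.

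Of 11 genes that act on MYC protein stability, 3 rose and 4 fell in MYCi against DMSO. The mitotic kinase genes Plk1 (-1.14 ± 0.070) and Aurka (-1.06 ± 0.079) and the ubiquitin ligase gene Skp2 (-1.02 ± 0.073) fell, and the deubiquitinase gene Usp36 (0.54 ± 0.067) rose. Of the probe sets of these genes, 5 of 6 fell for Skp2, 1 of 2 for Aurka, and 1 of 3 rose for Usp36. Fbxw7, whose product marks phosphorylated MYC for destruction, did not pass (-0.07 ± 0.073) and is named after its value was seen. Fbxw7 rose in released against MYCi (0.25 ± 0.073, limma adjusted p = 0.0202). Its 0.18 ± 0.065 in released against DMSO did not pass (limma adjusted p = 0.148). Of 5 genes of the parallel MLX branch, whose factors sense glucose and use their own MAX-like partner, 1 rose and 3 fell in MYCi against DMSO. The sensor genes Mlxip (-0.41 ± 0.086) and Mlxipl (-0.51 ± 0.097) fell. Mlxipl was dim, with means of 3.74 in MYCi and 4.24 in DMSO arrays. The target genes of these sensors divided, since Arrdc4 fell (-0.63 ± 0.083) and Txnip rose (0.49 ± 0.082). The other probe set of Arrdc4 gave 0.01 and did not pass. In released against DMSO none of the 5 MLX branch genes, none of the 14 coactivators and none of the 11 turnover genes passed (limma). At an unadjusted p under 0.05 there were 1, 2 and 2. Among the coactivators, 1 of the 3 probe sets of Actl6a passed as higher. With the mean of those 3 the change of Actl6a was 0.21 (limma adjusted p = 0.0402). In that comparison 7.08% of all genes passed, so lists this short can hold no call at that share. Of the corepressors 1 passed, Sin3b (0.26 ± 0.067, limma adjusted p = 0.0487). Sin3b was named after its value was seen and was lost whenever 1 array of either group was left out.

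For the called network genes with the largest fall and the largest rise with the inhibitor, Mxd3 and Mga, the 5 genes with the nearest pattern were found among all genes. The measure was the root-mean-square difference over the 8 arrays after each gene was centred on its DMSO mean. Nearest to Mxd3 were Proca1 (0.0654 log2 units), Map2k6 (0.0992), Tomm40l (0.101), Glis2 (0.103) and Vim (0.105). Their changes in MYCi against DMSO lay between -1.04 and -1.01, beside -1.05 for Mxd3. Nearest to Mga were F2r (0.0449), Dctn1 (0.0455), Gpam (0.0481), Usp48 (0.0486) and Dusp11 (0.0521), with changes between 0.24 and 0.36, beside 0.30 for Mga. With repeated quantile normalization 3 of the 5 genes nearest to Mga were again among its 5 nearest, and all 5 of Mxd3. These genes were picked for likeness out of the whole array, so their likeness is a description only.

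**Figure D3:**
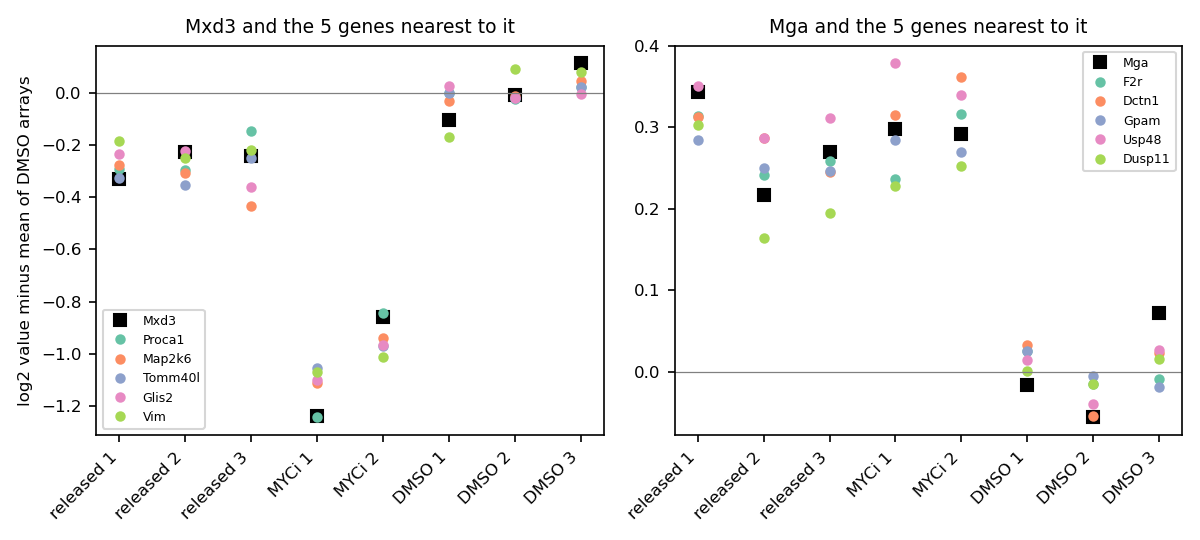
Log2 values minus the mean of the DMSO arrays (vertical axis) on the 8 arrays (horizontal axis) for Mxd3 and for Mga (black squares) and the 5 genes nearest to each (coloured circles). The Mxd3 group is lowest in the MYCi arrays and between the others in released arrays, and the Mga group is above DMSO in both released and MYCi arrays.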

How the data were processed

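Values were the deposited log2 expression values of 8 arrays. RMA, limma 3.2.15 and oligo 1.32.0 are listed per the submitters' processing notes, without their roles. The log2 scale was read from the deposited values, which run from 1.69 to 13.76. RMA equalises distributions between arrays, so a change shared by most genes is not visible. Of 45101 probe sets, the 34945 with 1 gene symbol in the platform annotation were tested, with no filter on level; 932 with several symbols, 9160 not named here and 64 controls were left out. Comparisons used limma 3.58.1 in R 4.3.3 (lmFit, eBayes), all 8 arrays in 1 fit with 5 residual degrees of freedom, two-sided p-values and Benjamini-Hochberg adjustment over all 34945 probe sets, threshold 0.05. The procedure was tested on simulated data with independent noise per array, which does not cover arrays of a group that share a culture. Each gene was spoken for by its probe set with the highest mean. The number of arrays limits the precision. All 10 members were named, with up to 4 genes per list by smallest p in MYCi against DMSO. The members and lists were chosen with earlier results of these data known. Listed genes without a probe set of 1 symbol, such as Ncor1 and Rybp, were not analysed here. Promoter windows came from RefSeq (GRCm38.p6). Alternatives covered probe-set summary, level filter, scaling, variance prior, array weights, arrays in the fit, threshold, replicate block and leaving out each array. Python 3.11.15 drew the figures.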

Additional observations from a re-analysis of the deposited data

How the results depend on the processing

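The counts of network genes and probe sets called in MYCi against DMSO and in released against MYCi stayed within 1.5 times under every alternative run, and leaving out single arrays gave 3 to 4 and 4 genes, and 10 to 11 probe sets in each. In released against DMSO the 2 genes and 2 probe sets called became 5 and 6 with a variance trend and robust fitting, 1 and 1 with only the arrays of the 2 groups and 1 and 1 with the replicate block. They became 0 and 0 at an adjusted p under 0.01, and 0 to 1 when single arrays were left out, and with the mean of all probe sets 1 gene was called. Over all probe sets 2318 were called in that comparison, 4131 with the variance trend and 877 at the stricter threshold. Replicate numbers are shared only as numbers: arrays with the same number had correlations of their deviations from group means between -0.053 and 0.013, those with other numbers between -0.061 and 0.081. The replicate block left 4 network genes called in each of the other comparisons. Of 460 member values under alternatives, 426 kept direction and side of the threshold, 18 lost the call, 4 gained it and 12 turned sign, all 12 without a call under either setting. The 4 gained calls were Mnt in MYCi against DMSO and Mnt, Mycn and Mycl in released against DMSO. All 4 came with the variance trend and robust fitting. When single arrays were left out, Mxd1 ranged from -0.273 to 0.297 in MYCi against DMSO, from -0.411 to 0.159 in released against MYCi and from -0.198 to 0.0037 in released against DMSO. In released against MYCi Max ranged from -0.0332 to 0.129, Mnt from -0.0296 to 0.0568 and Mga from -0.0516 to 0.0122, and Mxd4 ranged from -0.0231 to 0.0461 in released against DMSO. With the mean of its probe sets Mxd1 was -0.0289 in MYCi against DMSO. With median centring Mnt was -0.0031 in released against MYCi and Mxd4 -0.0101 in released against DMSO, where repeated quantile normalization gave -0.0106 for Mxd4. Median centring and repeated quantile normalization ended no call of a member. For the list genes named, added after the data were seen, 1253 of 1288 values kept direction and side of the threshold, 14 lost the call, 10 gained it and 11 turned sign, and 31 of 322 list counts moved by over 1.5 times. The 11 were all in released against DMSO and without a call. When single arrays were left out, Ruvbl2 ranged from -0.0081 to 0.0407, Yaf2 from -0.0689 to 0.0768, Ppat from -0.0128 to 0.0733, Cdc25a from -0.0871 to 0.0115 and Clu from -0.0597 to 0.129. With median centring Ruvbl2 was -0.0055 and Yaf2 -0.0177, and with the mean of all probe sets Ppat was -0.0183 and Cdc25a 0.0205. The corepressor count in released against DMSO, 1 (Sin3b), was 0 under most alternatives and 3 with the variance trend. The cause of these changes was not tested, apart from fewer arrays or a stricter threshold by construction. Each MYCi mean rests on 2 arrays, which limits the precision of every comparison with that group.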
